A study of Homo sapiens with 45 samples.

Results

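Cells that carried the SA form of ZHX2 were compared with cells that carried the PA form, gene by gene. The comparison rests on 6 of the 45 libraries of the series, which are 2 of its 15 groups: 3 libraries labelled SA and 3 labelled PA. The libraries were taken by their labels, and the comparison was chosen with earlier results of these data known. All 6 came from T47D, a human breast cancer line of luminal type that expresses the oestrogen receptor. All 6 carried the hairpin labelled shZHX2 and were kept in hypoxia, so knockdown and low oxygen are shared by both groups and differ in neither. The other 9 libraries of the same rescue table were hypoxic too, with 3 each of shCtrl cells with vector, shZHX2 cells with vector and shZHX2 cells with the form labelled WT. A separate table of 9 libraries held shCtrl cells in normoxia and in hypoxia and shZHX2 cells in hypoxia, without an introduced form. The sources used here do not give what PA and SA stand for, how the forms differ, the promoter that drives them, the oxygen level or the time in hypoxia. Only 1 hairpin label appears. Nothing says that replicates came from separate cultures, and p-values then reflect only library-to-library spread, which may be technical.

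ZHX2 is a nuclear protein with zinc fingers and homeodomains that binds chromatin and acts on transcription. It is a substrate of the VHL ubiquitin ligase, which also removes the HIF alpha subunits when oxygen is present, and the title of the series concerns its phase separation in hypoxia. Hypoxic cells raise glycolytic and HIF target genes. Ribosomal proteins and many respiratory chain subunits are encoded by short, highly expressed transcripts, and kinetochore, chromatin and looping factors often by long ones.

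Levels are given as CPM, the usual depth-scaled form of a gene's count, with library sizes scaled by TMM, a method that centres most genes. Differences are log2 fold changes of SA over PA, so a positive value is higher with SA. Calls are genes whose p from edgeR's quasi-likelihood test was under 0.05 after Benjamini-Hochberg adjustment. Library totals were 20702353 to 24425672 counts with SA and 19045652 to 22044832 with PA. No 2 replicates agreed within counting noise (chi-square over its degrees of freedom 1.95 to 3.52), and each library counted once. The T47D markers EPCAM, KRT8, KRT18 and KRT19 summed to 28453 to 28655 CPM with PA and 31789 to 32236 CPM with SA. The 15 markers of basal, fibroblast, leukocyte and endothelial cells summed to 11.8 to 13.6 CPM with PA and 11.5 to 12.7 CPM with SA. Most of that was ACTA2, with 767 counts over the PA libraries and 706 over the SA libraries. The leukocyte marker PTPRC had 0 counts in all 6 libraries, and TP63 had 0 with PA and 4 with SA. In bulk libraries, fewer cells of a type and less RNA per cell cannot be told apart.

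The ZHX2 transcript (ENSG00000178764) was present in both groups and was higher with SA. It read 54.4, 53.6 and 53.8 CPM in the PA libraries and 80.2, 82.9 and 78.4 CPM in the SA libraries, so the groups did not overlap. The difference was 0.58 (SE 0.04, adjusted p = 5.72e-21, edgeR). Cells with vector held 6.86 ± 0.545 CPM, cells with WT 72.3 ± 1.44 CPM and shCtrl cells 32.0 ± 1.99 CPM (SD, n = 3 each). Both forms therefore stood above the knockdown and above shCtrl cells, with WT between PA and SA. Gene counts cannot separate introduced from endogenous transcripts, so every difference below is between groups that differ in form and in ZHX2 level together, and the part of the level was not tested.

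Many genes differed between the forms, but nearly all by little. Of 14302 genes tested, 5821 were called (40.7%), 2599 higher with SA (18.2%) and 3222 lower (22.5%). Their median absolute log2 fold change was 0.28, a 1.21-fold difference, and 89.7% of them differed by under 1.5-fold. The calls of at least 1.5-fold were 601, of which 473 were higher and 128 lower. At least 2-fold were 84 (0.587%), 54 higher (0.378%) and 30 lower (0.21%). Spread between replicates was small, with a common biological coefficient of variation of 3.16%, so small differences could be called. The groups did not overlap in 6968 genes (48.7%). The same fit, which shares libraries with this contrast, called 5964 genes for SA against vector (41.7%), with 94 at least 2-fold (0.657%), and 6806 for PA against vector (47.6%), with 136 at least 2-fold (0.951%). For WT against vector it called 9965 (69.7%), with 2147 at least 2-fold (15%).

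The direction of the small differences depended on the scaling. TMM factors were 1.098 to 1.10 in the PA libraries and 0.981 to 0.994 in the SA libraries. With TMM the median over all genes was -0.04 and 44.6% of the calls were higher with SA. With library size alone the median was -0.20, 1453 genes were called higher and 6082 lower, and 19.3% of the calls were higher with SA. Every difference is therefore read against the median of all genes, and counts with library size alone are given beside lists whose balance turns. List counts below are read against 18.2% of all genes called higher and 22.5% called lower. With library size alone they are read against 1453 and 6082 of 14302 genes.

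Few of the 84 genes past 2-fold were well measured. Of the 54 higher with SA, 20 were protein coding, 19 were pseudogenes and 15 were of other types, and 45 had an average log2 CPM under 1. Of the 30 lower with SA, 21 were protein coding and all 30 were under that level. RN7SL1, the RNA of the signal recognition particle and not a polyadenylated transcript, had the largest rise among named genes at 1.89 (SE 0.51, adjusted p = 0.0123), but it read 10.1, 37.4 and 13.8 CPM in the SA libraries and 3.72 to 6.61 CPM in the PA libraries. Without SA replicate 2 its difference was 1.14, and without PA replicate 2, or with these 6 libraries fitted alone, it was no longer called.

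GSTM3 (ENSG00000134202, chr1:109733932-109741038, minus strand, GENCODE 29 on GRCh38), a glutathione S-transferase of the mu class, was the one protein-coding gene past 2-fold whose average log2 CPM was not under 1. It read 38.1, 40.9 and 37.7 CPM with PA and 84.2, 72.1 and 81.4 CPM with SA. Every SA library was above every PA library, and the difference was 1.03 (SE 0.05, adjusted p = 5.2e-21). Vector cells lay between them at 63.0 ± 3.3 CPM, so PA was under vector (-0.69) and SA above it (0.34). WT cells stood at 145 ± 3.6 CPM and shCtrl cells at 141 ± 3.96 CPM, above both forms. Its mu-class paralogues can share reads with it, and how such reads were counted is not given in the sources used here.

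RBM3, a cold-inducible RNA-binding protein, showed another order. It read 282, 278 and 291 CPM with PA and 519, 488 and 529 CPM with SA (difference 0.85, SE 0.03, adjusted p = 1.03e-39). PA was close to the 254 ± 0.846 CPM of vector cells and SA was well above it, while WT reached 803 ± 16.3 CPM. LINC01588, a long non-coding RNA, was also highest with WT and next with SA, at a lower level, with 3.29 ± 0.505 CPM for PA, 6.27 ± 0.262 CPM for SA, 3.56 ± 0.16 CPM for vector and 6.95 ± 0.589 CPM for WT. FGGY, a carbohydrate kinase, rose from 2.07 ± 0.176 to 3.75 ± 0.37 CPM, with WT at 3.75 ± 0.11 CPM. The largest rises also held transcripts named after a neighbour, among them AKAP1-DT (1.00), EMSY-DT (0.96) and RNASEH1-DT (0.85). Their overlap with the neighbour was not tested, and the sources used here do not give the strand setting, so their counts are uncertain.

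**Figure D1:**
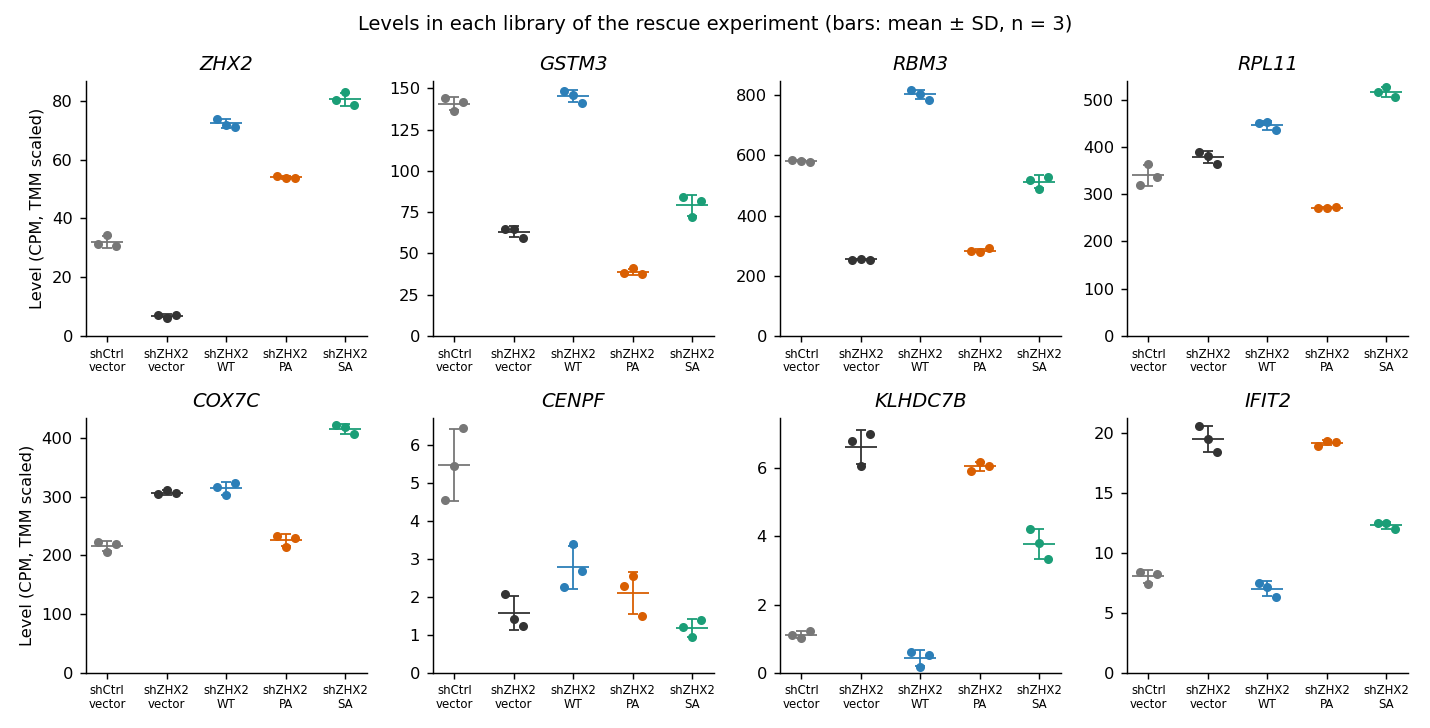
Levels of 8 genes in the 15 rescue libraries, in CPM on linear axes that start at 0. Points are libraries and bars are mean ± SD (n = 3). GSTM3, RBM3, RPL11 and COX7C are higher with SA than with PA in every library, KLHDC7B and IFIT2 are lower in every library, and ZHX2 differs between the forms too.

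Genes of the protein-making machinery were mostly higher with SA, on lists that were added after values had been seen. Cytosolic ribosomal proteins are the subunits of the ribosome, and vertebrate transcripts of these genes and of translation factors usually begin with a terminal oligopyrimidine tract, a C followed by pyrimidines. To show these starts, 30 bases around the annotated start are given for 5 of the ribosomal protein genes that rose most, for COX7C and EEF1B2, and for CENPF as a gene that fell. The sequences run from 10 bases before the start and are from RefSeq (GRCh38.p14). Capitals mark a C followed by at least 4 C or T on the gene's own strand that begins within 5 bases of the start.
RPL11, chr1:23691769-23691798, plus strand: cctggcccataaggCCCTCggccggaagct
RPL27, chr17:42998409-42998438, plus strand: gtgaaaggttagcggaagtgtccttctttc
RPL36A, chrX:101391001-101391030, plus strand: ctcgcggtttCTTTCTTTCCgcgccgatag
RPS29, chr14:49598691-49598720, minus strand: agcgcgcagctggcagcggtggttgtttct
RPL34, chr4:108620566-108620595, plus strand: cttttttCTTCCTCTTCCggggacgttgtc
COX7C, chr5:86617931-86617960, plus strand: tcccatCTTTCTTTTCagtccttgcgcacc
EEF1B2, chr2:206159599-206159628, plus strand: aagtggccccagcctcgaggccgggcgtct
CENPF, chr1:214603185-214603214, plus strand: ggttgagaccagaagcgggcgaattgggca
RPL36A, RPL34 and COX7C hold a long run at the annotated start and RPL11 a shorter one. RPL27, RPS29, EEF1B2 and CENPF hold none that begins within 5 bases of the annotated start. The RPL27 window does end in such a run, further from the start, and it is not marked. A run was found in 51 of 66 ribosomal protein genes with a sequence (77.3%) and in 2371 of 10484 tested genes with one (22.6%). Among genes called higher with SA other than ribosomal proteins it was in 24.6%, among genes called lower in 21.9% and among genes not called in 21.7%.

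RPL11, a protein of the large subunit, read 271, 270 and 272 CPM with PA and 516, 526 and 506 CPM with SA. The groups were far apart, and the difference was 0.93 (SE 0.03, adjusted p = 2.97e-35). RPL27, also of the large subunit, read 742, 668 and 714 CPM with PA and 1255 to 1277 CPM with SA (0.84, SE 0.03, adjusted p = 2.91e-38). EEF1B2, a subunit of the elongation factor that reloads EEF1A with GTP, read 199, 201 and 201 CPM with PA and 403, 384 and 405 CPM with SA (0.99, SE 0.03, adjusted p = 2.43e-43). All 3 genes had vector cells between the forms, at 378 CPM for RPL11, 1082 CPM for RPL27 and 286 CPM for EEF1B2.

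The whole list behaved alike. Of 84 cytosolic ribosomal protein genes, 83 were tested; 80 were called higher with SA and 0 lower, with a median difference of 0.66 against -0.04 for all genes. The 3 not called were RPL3L, a muscle paralogue at 0.494 ± 0.0788 CPM with SA, RPS10 (0.14) and RPL30 (0.49, adjusted p = 0.0907), and the lowest called value was RPL23A at 0.14. With library size alone 76 were higher and 0 lower. Against vector the list's median was 0.13 for SA, -0.48 for PA, 0.13 for WT and -0.41 for shCtrl cells. With vector as the reference its gap lay mostly on the PA side, but PA was near shCtrl cells and SA near WT. As a share of all counts, these genes took 10.9, 10.7 and 11.01% in the PA libraries and 15.2, 14.9 and 15.02% in the SA libraries. Vector cells gave 14.5 to 14.6%, WT cells 14.1 to 14.4% and shCtrl cells 11.4 to 11.6%. The 4 tested elongation factors gave 3 calls higher, EEF1B2, EEF1A1 (0.37) and EEF1D (0.36), while EEF2, which moves the ribosome along, had -0.04 (adjusted p = 0.147). Both lists were added after values had been seen. Ribosomal protein and EEF1A1 genes have many processed copies in the genome, and how reads shared with copies were counted is not given in the sources used here.

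Nuclear genes of the respiratory chain, the mitochondrial machine that uses oxygen, moved the same way. Of 26 genes, 23 were called higher with SA and 0 lower, with a median of 0.48. COX7C, a small subunit of cytochrome c oxidase that was named for the size of its change and not as a list member, read 233, 215 and 230 CPM with PA and 422, 419 and 407 CPM with SA (0.88, SE 0.03, adjusted p = 2.91e-38). COX7A2, another such subunit, rose from 212 ± 3.51 to 375 ± 6.26 CPM. Vector cells held 390 ± 7.17 CPM of COX7A2, so SA was near vector and PA well under it. PA was near WT cells (230 ± 3.94 CPM) and shCtrl cells (200 ± 9.58 CPM). Small accessory subunits of complex I such as NDUFA1 (50.5 ± 3.13 to 84.7 ± 2.82 CPM, difference 0.75) and of complex III such as UQCRB (0.65) rose as well. The 3 not called were SDHA (0.07), NDUFA9 (-0.01) and UQCRC2 (-0.03). The list's median against vector was 0.06 for SA, -0.28 for PA, -0.07 for WT and -0.29 for shCtrl cells. With library size alone 18 were higher and 1 lower.

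The 13 protein genes of the mitochondrial genome did not show the same size of change. Of these, 4 were called higher with SA, MT-CO1, MT-CO2, MT-CO3 and MT-ND3, and 0 lower, with a median of 0.13. MT-CO2, a core subunit of cytochrome c oxidase, was 852 ± 44.6 CPM with PA and 1087 ± 67.3 CPM with SA, while MT-ND5 was 368 ± 28.4 and 352 ± 5.72 CPM. Mitochondrial reads were 1.16 to 1.26% of counts with PA and 1.12 to 1.19% with SA, against 0.785 to 0.807% with vector and 0.312 to 0.333% with WT. On that share both forms stood above vector, and WT stood below it.

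Gene length moved with the difference between the forms. Length here is that of a gene's longest transcript in GENCODE 29. Over 14227 genes the difference and the length had a Spearman rho of -0.445, while GC content gave 0.007; genes share libraries and are not replicates. Over 5 equal groups of genes, from the shortest to the longest, the median difference was 0.23, 0.04, -0.06, -0.12 and -0.19. In the shortest group 38.7% of genes were called higher and 2.39% lower. In the longest group 5.09% were called higher and 45.7% lower. Without ribosomal protein genes the shortest group still had a median of 0.22 and 38% called higher. Genes called higher had a median length of 2039 bases, genes called lower 4996 and all genes 3331. Weighted by counts, the median length in a library was 2685 to 2716 bases with PA, 2466 to 2493 with SA and 2449 to 2458 with vector. WT libraries gave 2555 to 2571 bases and shCtrl libraries 2727 to 2735, so PA was nearest to shCtrl cells. Against vector, the rho with length was 0.02 for SA, 0.40 for PA, 0.05 for WT and 0.22 for shCtrl cells. The rho with GC content was -0.54 for SA, -0.48 for PA, -0.38 for WT and -0.26 for shCtrl cells. These contrasts share the vector libraries, and each form thus differed from vector along GC content.

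**Figure D2:**
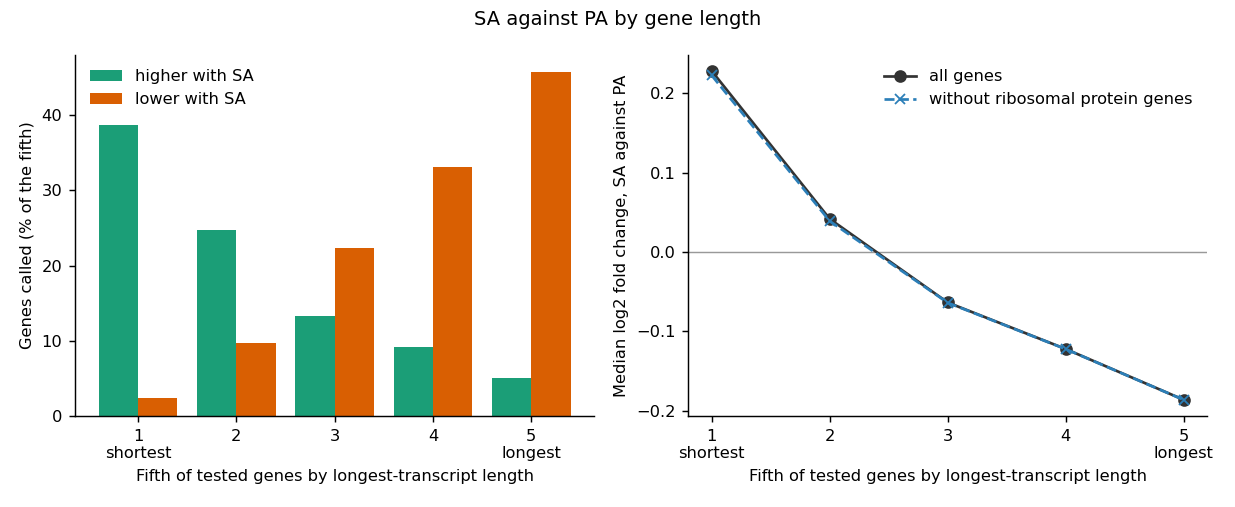
Genes tested were split into 5 equal groups by longest-transcript length. The left panel gives the percentage of each group called higher or lower with SA on an axis from 0, and the right panel the median log2 fold change of SA against PA with and without ribosomal protein genes; it falls from 0.23 in the shortest group to -0.19 in the longest.

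The calls were recomputed after a smooth trend on GC content and length had been removed from each library. Then 1941 genes were called higher and 2382 lower, of which 1694 and 1839 were called the same way before. Ribosomal proteins had 76 calls higher and 1 lower, RPL23A, with a median of 0.48. The nuclear respiratory chain had 18 higher and 1 lower, with a median of 0.30. The mitochondrial genome turned, with 0 higher, 6 lower and a median of -0.22, and with library size alone it had 2 higher and 1 lower. GSTM3 was at 1.02, RPL11 at 0.68, EEF1B2 at 0.67, COX7C at 0.69 and RBM3 at 0.69.

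Several protein-coding genes fell with SA. CENPF, a large kinetochore protein of dividing cells, fell by 0.84 (SE 0.22, adjusted p = 0.00131). It read 2.27, 2.56 and 1.48 CPM with PA and 1.21, 0.926 and 1.38 CPM with SA, so the groups only just parted. ENC1, an actin-binding protein with kelch repeats, read 6.04, 7.31 and 6.99 CPM with PA and 4.26, 4.43 and 3.26 CPM with SA (-0.77, SE 0.13, adjusted p = 1.45e-06). Vector cells held 4.38 ± 0.394 CPM of ENC1, near SA (-0.14 against vector) and under PA (0.63). FRS2, a docking protein of FGF receptors, was 5.25 ± 0.756 CPM with PA and 3.32 ± 0.306 CPM with SA (-0.67, SE 0.13, adjusted p = 2.42e-05). Vector cells had 5.19 ± 0.239 CPM and WT cells 3.23 ± 0.53 CPM of FRS2, so here SA stood with WT and PA with vector.

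KLHDC7B, a kelch domain protein, read 5.91, 6.19 and 6.08 CPM with PA, 4.22, 3.8 and 3.34 CPM with SA, 6.63 ± 0.508 CPM with vector and 0.434 ± 0.23 CPM with WT. SA lay between vector and WT, nearer to vector (-0.68 against PA, SE 0.13, adjusted p = 9.91e-06). DNAJC13, an endosomal co-chaperone, and EXOC8, a subunit of the exocyst, fell by 0.65 each. Other large falls were ZFP41 (-0.85), ZNF562 (-0.69), ANKRD12 (-0.67), GAREM1 (-0.66) and IFNL3 (-0.65). IFNL3 shares nearly all its sequence with IFNL2, so its count is uncertain.

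Interferon-stimulated genes split. Of 22 genes, 11 were called lower with SA (50%, against 22.5% of all genes) and 5 higher (22.7%, against 18.2%), with a median of -0.09. IFIT2, which binds foreign RNA, read 19.0, 19.4 and 19.3 CPM with PA and a mean of 12.3 ± 0.276 CPM with SA, with no SA library above 12.5 CPM. No library overlapped, and the difference was -0.64 (SE 0.07, adjusted p = 7.65e-12). PA was at the level of vector cells (19.5 ± 1.09 CPM) and SA was between vector and WT (7.01 ± 0.622 CPM). OAS2, which senses double-stranded RNA, fell from 188 ± 4.55 to 144 ± 5.31 CPM (-0.39), with WT at 118 ± 2.72 CPM, and NLRC5, which drives MHC class I genes, fell from 3.74 ± 0.204 to 2.44 ± 0.446 CPM (-0.61).

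Other interferon genes rose. IFI27 read 3733, 3525 and 3755 CPM with PA and 5246, 5220 and 4844 CPM with SA (0.48, SE 0.04, adjusted p = 6.8e-11), where SA was near vector (5088 CPM) and PA lay toward WT (3210 CPM). IFIT1, a paralogue of IFIT2, rose from 44.6 ± 1.06 to 57.6 ± 0.598 CPM (0.37). After removal of the GC and length trend, 12 of the 22 were lower and 3 higher, IFIT2 stayed at -0.64 and IFI27 at 0.35.

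NF-kB targets were mostly lower (median -0.20), with 9 of 17 called lower (52.9%) and 1 higher (5.88%). Over all genes the shares were 22.5% and 18.2%. RELB, a subunit of NF-kB itself, read 44.3, 41.2 and 43.2 CPM with PA and 35.6, 36.5 and 35.0 CPM with SA (-0.27, SE 0.05, adjusted p = 2.88e-06). Vector cells held 48.2 ± 0.0559 CPM and WT cells 21.4 ± 0.409 CPM of RELB, so the order was vector, PA, SA, WT. NFKB2 (-0.26), TNFAIP3 (-0.26) and NFKBIA (-0.12), the last 2 being inhibitors of the pathway, fell with it. The call higher was CXCL8 (3.35 ± 0.229 to 4.45 ± 0.386 CPM), and it was lost without SA replicate 3, without PA replicate 1 and after the length trend was removed. With that trend removed 9 of the 17 were lower and 0 higher, and with library size alone 11 were lower and 0 higher.

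CTCF and cohesin fold chromatin into loops, and MED1, EP300 and CREBBP are coactivators known from transcriptional condensates. Of 17 such genes, 11 were called lower with SA (64.7%, against 22.5% of all genes) and 0 higher (median -0.19). CREBBP read 45.7, 42.4 and 42.7 CPM with PA and 36.8, 36.1 and 35.2 CPM with SA (-0.28, SE 0.05, adjusted p = 1.77e-06), and the groups did not overlap. CTCF was 44.2 ± 1.83 and 40.5 ± 0.963 CPM (-0.13), the cohesin loader NIPBL 10.9 ± 0.298 and 8.82 ± 0.502 CPM (-0.30), and the cohesin subunit SMC1A 42.6 ± 1.29 and 41.5 ± 2.73 CPM (adjusted p = 0.517). These transcripts are long, and after the GC and length trend was removed 4 were called lower and 0 higher, with CTCF, NIPBL, EP300 and CREBBP no longer called. Against vector the list's median was 0.07 for SA, 0.28 for PA, 0.37 for WT and 0.41 for shCtrl cells, so PA was the form nearer to the last 2.

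The hypoxia response did not move as a whole. Of 30 HIF target genes, 9 were called higher with SA (30%) and 8 lower (26.7%), with a median of -0.01. The shares over all genes were 18.2% and 22.5%. With library size alone 4 HIF targets were higher and 18 lower, against 1453 and 6082 of all 14302 genes. CA9, a carbonic anhydrase used as a hypoxia marker, read 168, 161 and 164 CPM with PA and 167, 163 and 161 CPM with SA (-0.01, SE 0.03, adjusted p = 0.889), and with the GC and length trend removed it was called at -0.12. NDRG1, another standard marker, was 2942 ± 8.06 and 2868 ± 19.1 CPM (-0.04, adjusted p = 0.225). VEGFA, the angiogenic growth factor, was 807 ± 17 and 740 ± 6.56 CPM (-0.13, adjusted p = 5.49e-05), and this turned to 0.03 with the length trend removed. ANGPTL4, a lipase inhibitor, was 570 ± 11.4 and 616 ± 17.3 CPM (0.11, adjusted p = 0.00341), and this turned to -0.04 with library size alone. WT cells held 1815 CPM of ANGPTL4 against 561 CPM with vector, so the gap between the forms was small beside that range.

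A few HIF targets did differ. HILPDA, which promotes lipid droplets, read 2889, 2948 and 2929 CPM with PA and 4231, 4279 and 4197 CPM with SA (0.54, SE 0.02, adjusted p = 2.57e-31). BNIP3, a mitophagy receptor, read 583, 587 and 583 CPM with PA and 813, 791 and 812 CPM with SA (0.46, SE 0.03, adjusted p = 4.92e-26). PA was at the vector level of BNIP3 (577 ± 7.62 CPM), and WT was at 1265 CPM. ANKRD37 (0.55) and SPAG4 (0.43) were also higher, and all 4 were called higher with the length trend removed. HILPDA was then at 0.26, ANKRD37 at 0.32 and BNIP3 at 0.41. The demethylase KDM3A (-0.33) and the collagen prolyl hydroxylase P4HA1 (-0.21) were lower.

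Some of the oxygen sensing factors themselves were lower. HIF1A, the oxygen-regulated subunit of HIF-1, read 40.8, 39.5 and 40.2 CPM with PA and 33.9, 35.2 and 28.8 CPM with SA (-0.30, SE 0.05, adjusted p = 1.89e-06). Both forms were below WT (49.8 ± 2.81 CPM). PA was above vector (29.2 ± 1.31 CPM), while the SA libraries ran from just under that mean to above it. EPAS1, which encodes HIF-2 alpha, fell from 4.51 ± 0.115 to 3.37 ± 0.115 CPM, and VHL from 34.9 ± 1.3 to 28.5 ± 0.637 CPM. Of the 12 tested genes of the ZHX family and oxygen sensing, 5 were called lower and 1, ZHX2, higher. The counts were 9 lower and 1 higher with library size alone, and with the GC and length trend removed 5 were lower and 2 higher.

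Glycolysis was divided by enzyme. Of 21 genes, 8 were called higher (38.1%, against 18.2% of all genes) and 5 lower (23.8%, against 22.5%), with a median of -0.01. Counts were 2 higher and 12 lower with library size alone, and 4 and 6 with the GC and length trend removed. PGK1, which makes ATP in the pathway, read 3897, 3950 and 3851 CPM with PA and 5494, 5599 and 5357 CPM with SA (0.49, SE 0.02, adjusted p = 2.97e-29), and it was 0.53 with the length trend removed. TPI1 rose from 2971 ± 44.1 to 3762 ± 67.2 CPM (0.34), to the level of vector cells. Its difference was 0.20 with the length trend removed. HK2, which traps glucose in the cell, fell from 1067 ± 15 to 914 ± 5.4 CPM (-0.22), and PFKFB3, which activates phosphofructokinase, by 0.19. LDHA (0.17) and GAPDH (0.13) were called higher, but lost the call with library size alone and with the length trend removed.

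Genes of luminal identity and the oestrogen response were also mixed. Of 24 oestrogen-responsive genes, 10 were called higher (41.7%) and 8 lower (33.3%), and of 16 luminal markers 8 (50%) and 4 (25%). Over all genes the shares were 18.2% and 22.5%. With library size alone the counts became 4 and 13, and 2 and 8. With the GC and length trend removed they were 9 and 8, and 5 and 6. Without PA replicate 2 the oestrogen calls lower were 5. TFF1, a secreted peptide and a classical oestrogen target, read 5509, 5417 and 5706 CPM with PA and 8746, 8319 and 8427 CPM with SA (0.62, SE 0.03, adjusted p = 7.73e-34). SA was at the vector level of TFF1 (8829 CPM), and PA was below WT (6202 CPM). With the GC and length trend removed the TFF1 difference was 0.31. AGR2, a disulfide isomerase of secretory cells, was 38.4 ± 2.81 CPM with PA, 38.0 ± 0.912 CPM with vector and 57.1 ± 1.81 CPM with SA (0.58). The receptor gene ESR1 was 19.2 ± 0.544 and 21.4 ± 1.07 CPM (0.16, adjusted p = 0.0331), a call lost with library size alone. Of the pioneer factors, GATA3 fell from 158 ± 2.21 to 134 ± 4.82 CPM (-0.24), and FOXA1 had -0.10. PDZK1, a scaffold protein raised by oestrogen, was 1.99 ± 0.307 and 3.61 ± 0.674 CPM (0.85, SE 0.17, adjusted p = 2.16e-05).

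Cell cycle genes had 12 of 30 called higher (40%, against 18.2% of all genes) and 4 lower (13.3%, against 22.5%), with a median of 0.07. Counts were 3 higher and 13 lower with library size alone, and 8 and 5 with the GC and length trend removed. BIRC5, the survivin gene of mitosis, was 32.2 ± 0.902 CPM with PA and 43.5 ± 3.16 CPM with SA (0.44), and CDK1, the mitotic kinase, 23.7 ± 1.13 and 30.1 ± 1.08 CPM (0.35). MKI67, a proliferation marker with a long transcript, was 23.9 ± 0.973 and 19.3 ± 2.24 CPM (-0.30), and CENPF fell too. The 4 genes kept those directions and calls with library size alone and with the length trend removed. Without PA replicate 2 the calls lower were 2.

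Stress lists divided by gene as well. Their counts are read against 18.2% of all genes called higher and 22.5% called lower. Heat shock genes had 8 of 15 called higher and 4 lower. These counts were 2 and 9 with library size alone, and 2 and 4 with the GC and length trend removed. Without SA replicate 3 the calls higher were 5. HSPA8, the constitutive cytosolic chaperone, rose from 303 ± 3.24 to 447 ± 8.93 CPM (0.56) and HSPE1, the small mitochondrial chaperonin, from 42.6 ± 1.28 to 64.0 ± 5.22 CPM (0.58). Those 2 were the ones called higher with library size alone. With the GC and length trend removed HSPA8 was at 0.43 and HSPE1 at 0.25. Genes of the ATF4 response had 7 of 19 higher and 4 lower (2 lower without PA replicate 1 or PA replicate 3). They had 3 higher and 9 lower with library size alone. ATF4 was at 602 ± 6.44 and 779 ± 20 CPM (0.37) and DDIT3 at 41.3 ± 1.3 and 56.2 ± 3.6 CPM (0.45). With the GC and length trend removed ATF4 was at 0.26 and DDIT3 at 0.13. NRF2 targets had 5 of 16 higher, led by NQO1 (0.43) and TALDO1, and 8 lower (5 without PA replicate 3), among them NFE2L2 itself (-0.30) and GCLC (-0.29). Cholesterol synthesis had 8 of 22 higher, with FDPS, which makes farnesyl diphosphate, at 145 ± 1.64 and 211 ± 0.442 CPM (0.54), and 6 lower. The cholesterol list had 6 higher and 13 lower with library size alone, and 8 and 3 with the GC and length trend removed. Matrix and mesenchymal genes had 0 of 16 higher and 7 lower (median -0.17), with SNAI1, a repressor of E-cadherin, at 5.51 ± 0.235 and 4.01 ± 0.129 CPM (-0.46). With the GC and length trend removed the matrix list had 1 higher and 3 lower.

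**Figure D3:**
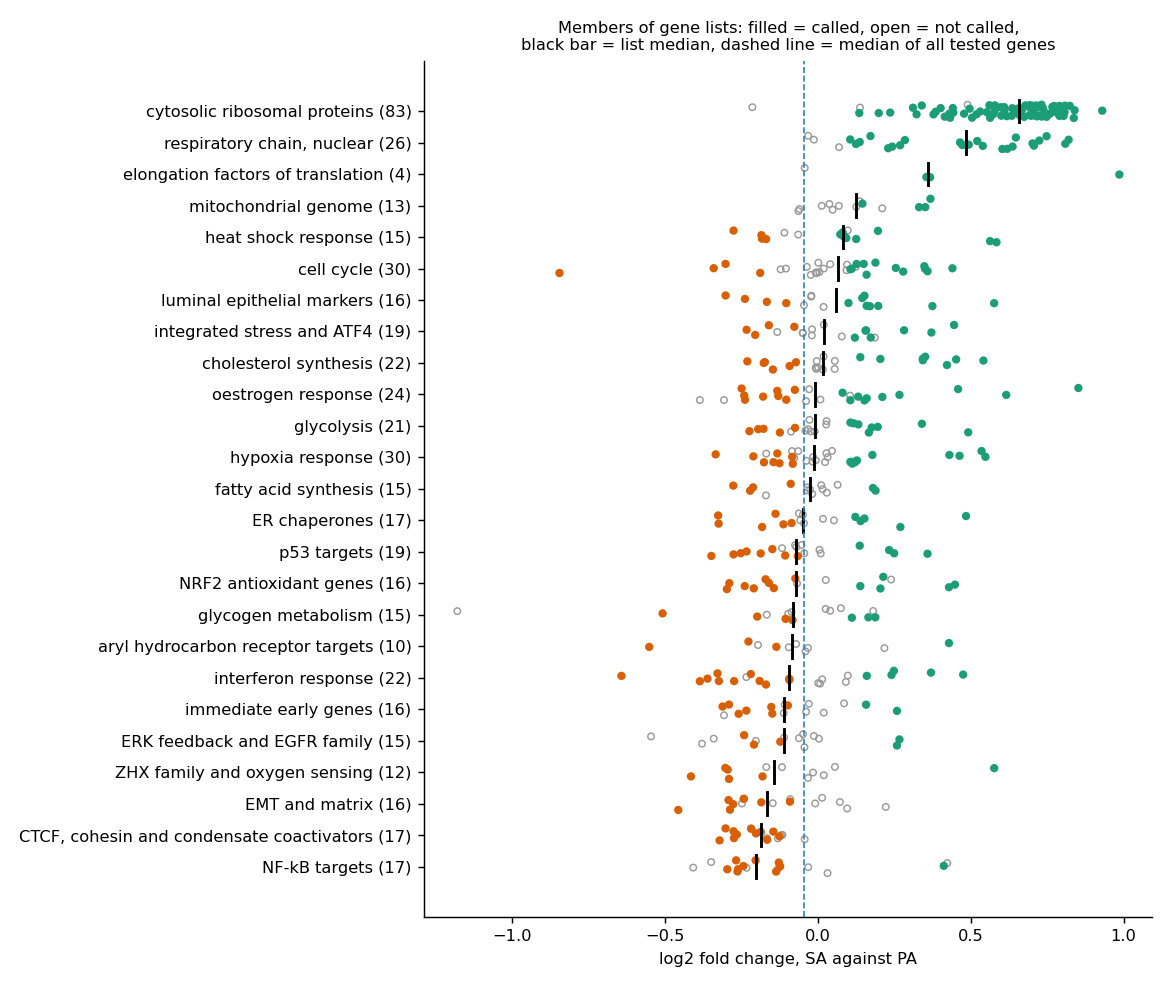
Each point is a tested member of a gene list placed by its log2 fold change of SA against PA; filled points were called, open points were not, black bars are list medians and the dashed line is the median of all genes tested. Ribosomal proteins (median 0.66) and the nuclear respiratory chain (0.48) lie to the right of it, and NF-kB targets (-0.20) and the CTCF and cohesin list (-0.19) to the left.

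The genes that separated the forms were then set beside WT against vector, a contrast that holds none of the SA or PA libraries. Of the genes called in SA against PA, 4726 were also called there; SA was on the WT side in 2590 of them (54.8%) and PA in 2136. Genes higher with SA and with WT were 1100, which is 42.3% of the genes higher with SA and 21.9% of those higher with WT. Genes higher with SA and lower with WT were 1006 (38.7% and 20.3%). Genes lower with both were 1490 (46.2% and 30.1%), and lower with SA but higher with WT were 1130 (35.1% and 22.5%). For reference, 35.1% of all genes were called higher and 34.6% lower with WT. The median change with WT was 0.02 for genes higher with SA, -0.09 for genes lower with SA and -0.00 for all genes.

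Knockdown in the separate table put SA on the shCtrl side more often than PA, and the knockdown in the rescue table put PA there more often. In the separate table, shCtrl against shZHX2 cells in hypoxia gave 9961 calls among 14903 genes (66.8%), 33.2% higher and 33.6% lower with shCtrl. There 4329 of the genes called between the forms were called too, and SA was on the shCtrl side in 2753 (63.6%) and PA in 1576. In the rescue table, shCtrl against shZHX2 cells, both with vector, gave 9894 calls (69.2%). There SA was on the shCtrl side in 1937 of 4695 genes (41.3%) and PA in 2758. The 2 versions of the same labelled contrast thus put SA on opposite sides on balance.

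Genes called in SA against PA, in WT against vector and in the separate knockdown table were sorted by direction, and those with WT and shCtrl on the same side are given. SA, WT and shCtrl were all higher in 621 genes and all lower in 749. SA was the opposite of both in 303 genes higher and 358 lower with SA. Of the genes higher in all, GSTM3, EEF1B2, LINC01588, RPL11, FGGY and RBM3 had the largest differences between the forms, and ZNF562, FRS2, EXOC8, KLHL11, NLRC5 and NATD1 of those lower in all. NATD1, an acetyltransferase domain protein, read 7.14 ± 0.382 CPM with PA, 4.80 ± 0.0632 CPM with SA, 7.20 CPM with vector and 2.36 CPM with WT. Where PA was on the WT side, COA1, an assembly factor of cytochrome c oxidase, was 30.1 ± 1.13 CPM with PA, 51.9 ± 3.61 CPM with SA, 47.4 ± 1.49 CPM with vector and 36.5 ± 0.29 CPM with WT. SLCO2A1, a prostaglandin transporter, was 3.46 ± 0.335 CPM with PA, 2.21 ± 0.261 CPM with SA, 2.44 ± 0.106 CPM with vector and 8.51 ± 0.679 CPM with WT. SASH1 (-0.61) was called here but lost its call without any one of 4 of the 6 libraries.

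**Figure D4:**
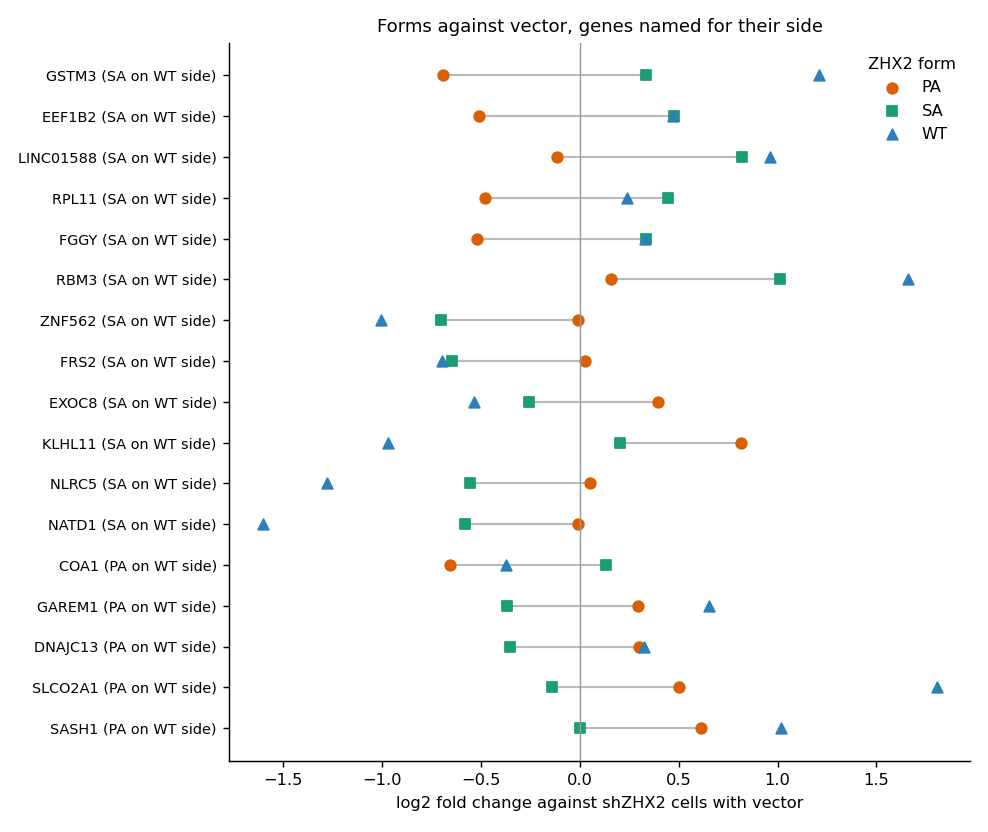
Log2 fold changes against shZHX2 cells with vector for PA (circles), SA (squares) and WT (triangles) in 17 genes called in SA against PA, in WT against vector and in the separate knockdown table. The 3 contrasts share the vector libraries, genes were chosen by calls, and transcripts named after a neighbour are left out, so the picture is a description; SA lies toward WT for the upper 12 genes and PA for the lower 5.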

How the data were processed

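PolyA RNA of T47D cells was sequenced as read pairs, per the labels' protocols. The authors deposited 1 whole-number count of reads per gene and library, not normalised. The submitters' processing notes name FastQC, HISAT2, featureCounts, DESeq2 and hg38, and the sources used here do not give roles, versions, annotation or strand setting. The table listed 60624 genes, and 58437 had an entry in GENCODE 29 (GRCh38), which gave type, position, GC content and length.

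Counts of the 15 rescue libraries were fitted together in edgeR 4.0.16 (R 4.3.3), with filterByExpr, TMM, robust dispersions (estimateDisp, glmQLFit) and quasi-likelihood tests (glmQLFTest) of SA minus PA. Adjustment was by Benjamini-Hochberg over the 14302 genes tested, and calls were at an adjusted p under 0.05. The 9 libraries of the separate knockdown table were fitted apart. SE is the absolute log2 fold change over the root of F. CPM values use TMM-scaled library sizes. The fit was tested on simulated data.

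Genes were named by a rule: ZHX2, the 12 largest rises and falls among called genes (no overlap between groups, mean log2 CPM at or above 1, no clone-type name or pseudogene), up to 3 called members per list, genes called in 3 contrasts (6 per direction on the same side, 4 on the opposite side), and CA9, NDRG1, VEGFA and ANGPTL4. Other list members named were picked after their values were seen, as examples. The comparison, the 24 gene lists and the rule were chosen with earlier results of these data known, and 2 lists were added after values had been seen. Alternatives were DESeq2 size factors, library size alone, no filter, DESeq2 1.42.0, the 6 libraries alone, leaving out each library, a replicate block and a GC and length correction (a spline per library). No pairing of the libraries by replicate number was seen. Hexanediol and sgRNA tables were not used. Some named genes are not reported here.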

Additional observations from a re-analysis of the deposited data

How the results depend on the processing

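With library size alone, 1453 genes were higher and 6082 lower, with 25 and 69 at least 2-fold, and the median of all genes moved from -0.04 to -0.20; TMM and library size differ here because TMM factors differed between the forms. DESeq2's Wald test gave 2269 and 2198 calls, with 31 and 9 at least 2-fold. The 6 libraries alone gave 16 at least 2-fold lower and the GC and length correction 22 at least 2-fold higher; the cause was not tested. Directions turned for ANGPTL4 (-0.0389, library size) and, with the correction, for AREG (-0.0228), FASN (0.0569), MT-CO2 (-0.00912) and VEGFA (0.0349). Leaving out a library gave 2379 to 2650 higher and 2477 to 2896 lower, 50 to 74 and 25 to 38 at least 2-fold, 2246 to 2411 on the WT side against 1815 to 1959, 2375 to 2559 on the shCtrl side of the separate table against 1337 to 1473, and 0.56 to 0.60 for ZHX2. The replicate block gave 2589 and 3194 calls. Same-number libraries correlated at -0.0047, 0.014 and 0.00054, and other pairs at -0.018 to 0.018. No pairing by number was seen, and a shared batch was not tested. Without a filter 2711 were higher and 2150 lower, and with DESeq2 size factors 2724 and 2984. Of 105 named genes, 90 kept direction and side of the threshold under the correction and 98 with library size alone. Low counts limit the genes past 2-fold, most of which had an average log2 CPM under 1.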

Other observations

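Counts and members of the gene groups not described above are given here, to be read against 18.2% of all genes called higher and 22.5% called lower with SA. Of 17 chaperones of the endoplasmic reticulum, 5 were called higher and 6 lower. These counts were 1 and 12 with library size alone, and 2 and 8 with the GC and length trend removed. MANF, a small secreted protein of the unfolded protein response, was 131 ± 2.79 CPM with PA and 184 ± 4.17 CPM with SA, a difference of 0.48. EDEM1 and SEL1L, which send misfolded proteins to degradation, fell by 0.33 and 0.32, from 55.3 ± 3.57 to 44.1 ± 1.18 CPM and from 112 ± 0.635 to 89.4 ± 3.26 CPM. Vector cells held 42.6 CPM of EDEM1 and 87.4 CPM of SEL1L, near the SA level of each. Among 19 p53 targets, 4 were called higher and 8 lower (1 and 13 with library size alone). DDB2, a DNA damage sensor, rose from 144 ± 3.53 to 185 ± 3.56 CPM (0.36), and TP53INP1, a cofactor of p53, fell from 56.0 ± 0.605 to 44.0 ± 2.37 CPM (-0.35).

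Immediate early genes, which answer growth signals within minutes, had 2 of 16 called higher and 7 lower (1 and 11 with library size alone). KLF4, a transcription factor, fell from 42.5 ± 2.07 to 34.2 ± 1.77 CPM (-0.31) and IER2 from 71.2 ± 0.782 to 59.5 ± 2.07 CPM (-0.26), while IER3 rose from 2859 ± 72.8 to 3421 ± 37.6 CPM (0.26). Aryl hydrocarbon receptor targets had 1 of 10 higher, NQO1, and 3 lower (1 and 5 with library size alone). CYP1B1, which oxidises oestrogens, fell from 167 ± 3.41 to 143 ± 4 CPM (-0.23), and UGT1A6 fell by 0.55, although its reads may be shared with other UGT1A genes that use the same exons. Fatty acid synthesis had 2 of 15 higher and 4 lower (13.3% and 26.7%), shares near those of all genes. It had 0 and 10 with library size alone, and with the GC and length trend removed 2 and 1. FASN, the fatty acid synthase, was 2950 ± 64.3 CPM with PA and 2531 ± 29.6 CPM with SA (-0.22), but its sign turned with the length trend removed. Glycogen metabolism had 3 of 15 higher and 4 lower (20% and 26.7%), again near all genes, and 0 and 5 with library size alone. Without SA replicate 1 or SA replicate 3 the calls higher were 1, and without PA replicate 1 or PA replicate 2 the calls lower were 2. ERK feedback and EGFR family genes had 2 of 15 higher and 3 lower (13.3% and 20%), also near all genes, and 2 and 7 with library size alone. The 3 tested markers of other cell types were KRT5 (0.12, adjusted p = 0.864 with edgeR), KRT14 (-0.10, adjusted p = 0.866) and ACTA2 (-0.09, adjusted p = 0.416).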
